A study of Homo sapiens with 8 samples.

Results

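EPH receptors and ephrins were followed in RNA-seq libraries of SUIT2, a human pancreatic ductal adenocarcinoma (PDA) cell line. Of the 22 EPH and ephrin genes of the human genome that were listed, 10 were chosen by symbol: the class A receptors EPHA1, EPHA2, EPHA4 and EPHA7, the class B receptors EPHB2, EPHB3 and EPHB4, and the ligands EFNA1, EFNB1 and EFNB2. The symbols were mapped to the NCBI gene numbers that name the 25702 genes of the count files. All 10 were found, and all 10 were among the 14333 genes that passed the filter on low counts.

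EPH receptors form a large family of receptor tyrosine kinases, and their ligands, the ephrins, are held on the surface of the neighbouring cell. Class A receptors mainly bind ephrin-A ligands, which are tethered to the membrane by a lipid anchor, and class B receptors mainly bind the transmembrane ephrin-B ligands, with EPHA4 able to bind both. Contact between the cells sends a signal into the receptor cell and another into the ligand cell, and the family is known for guiding axons, for keeping cell populations apart at tissue borders and for altered levels in carcinomas.

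The study asked what changes when Engrailed-1 (EN1), a homeodomain transcription factor, is knocked down. Each library came from SUIT2 cells carrying a short hairpin RNA: 4 were labelled shScr, the scramble control, 2 were labelled shEN1 #1 and 2 were labelled shEN1 #2, for 2 different hairpins against EN1. All 8 libraries therefore carried a hairpin, and no library of unmodified cells was used. RNA was measured in bulk, so fewer cells of a kind and less RNA per cell cannot be told apart.

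The libraries held between 33423590 and 37810604 counts, with TMM scaling factors between 0.962 and 1.07. Levels are given as counts per 1e6 counts of the library after scaling by TMM, edgeR's trimmed mean of M-values (CPM). EN1 itself did not follow the labels, with a log2 fold change of 0.26 for shEN1 against shScr (unadjusted p = 0.561 by edgeR). It stood at 4.10, 4.50, 4.93 and 2.51 CPM in shScr replicates 1 to 4, 5.77 and 5.41 CPM in shEN1 #1 replicates 1 and 2, and 1.35 and 6.70 CPM in shEN1 #2 replicates 1 and 2, so that it was lowest in 1 shEN1 library, highest in the other library of the same construct, and not lower in either library of shEN1 #1 than in any shScr library. Groups are for this reason named below by their labels only. The paper also measured EN1 in SUIT2 with its hairpins by RT-qPCR, which was not compared here. Going by their labels, shScr replicate 4 and shEN1 #2 replicate 1 stood apart from the rest over all tested genes: they lay at 59.2 and 62.1 on the first principal component, which held 44.4% of the variance, and the other 6 lay between -27.6 and -9.15. On the second component, with 17.5% of the variance, shScr replicate 3 and shEN1 #1 replicate 1 lay at -39.3 and -30.6. The rest lay between 2.07 and 29.4 there. Epithelial keratins and EPCAM were expressed in every library. Of 20 markers of fibroblasts, leukocytes, endothelium and nerve or glia, 16 stayed below 1 CPM in all libraries and 9 of these were at 0 throughout. The others included COL1A1 and SYP, with at most 3.99 and 1.26 CPM, and CD68, a lysosomal protein, between 7.74 and 34.6 CPM, while PTPRC, the defining leukocyte marker, was at 0.

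EPHA7 (NCBI gene 2045, chr6:93949738-94129405 of GRCh37, minus strand), a class A receptor best known from the developing nervous system, was the reference for the question of whether other members followed it. Its level varied more than that of any other member. EPHA7 was at 3.37, 4.75, 21.9 and 36.1 CPM in shScr replicates 1 to 4, 23.2 and 2.85 CPM in shEN1 #1 replicates 1 and 2, and 43.0 and 3.59 CPM in shEN1 #2 replicates 1 and 2. Each label therefore held libraries at a high and at a low level, and the range of shScr lay inside that of shEN1.

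In order of level, EPHA7 was highest in shEN1 #2 replicate 1, followed by shScr replicate 4, shEN1 #1 replicate 1, shScr replicate 3, shScr replicate 2, shEN1 #2 replicate 2, shScr replicate 1 and shEN1 #1 replicate 2. The widest step in this order, 4.62-fold, lay between shScr replicate 3 and shScr replicate 2, and the other steps lay between 1.06-fold and 1.56-fold. Above the widest step lay shEN1 #2 replicate 1 and shScr replicate 4, the highest libraries on the first principal component. The others above it, shEN1 #1 replicate 1 and shScr replicate 3, were the lowest on the second. Counting error was small beside that step: the exact 95% Poisson interval was 20.4 to 23.5 CPM in shScr replicate 3 and 4.07 to 5.5 CPM in shScr replicate 2. The intervals of shEN1 #1 replicate 1, at 21.6 to 24.8 CPM, and of shScr replicate 3 overlapped, as did those of neighbours among the 4 lowest libraries. Here and below, such intervals cover counting error only and treat every count as independent. The reads were paired and carried no molecular identifiers. If both reads of a pair, or copies of the same molecule, were counted, the intervals are too narrow, which was not tested. The highest library was 15.1-fold above the lowest, and 3.24% of the tested genes varied at least as much.

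The promoters of EPHA7, of the member closest to it over the 8 libraries (EPHB3) and of the members most often ordered against it (EPHA1 and EPHB2) are shown because EN1 is a homeodomain factor, a class whose core motif is TAAT, often followed by T. The windows, from RefSeq on GRCh38.p14, run from 250 bases before to 50 bases after the outermost annotated start, 5′ to 3′ on the gene's strand. Capitals mark TAATTN and the GC box GGGCGG on either strand.

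EPHA7, chr6:93419510-93419809, minus strand: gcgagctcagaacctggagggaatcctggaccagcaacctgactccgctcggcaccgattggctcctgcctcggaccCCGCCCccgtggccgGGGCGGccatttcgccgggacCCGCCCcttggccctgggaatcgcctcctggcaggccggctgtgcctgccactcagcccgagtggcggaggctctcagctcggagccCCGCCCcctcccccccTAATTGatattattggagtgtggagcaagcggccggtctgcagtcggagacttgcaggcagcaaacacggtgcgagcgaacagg
EPHB3, chr3:184561535-184561834, plus strand: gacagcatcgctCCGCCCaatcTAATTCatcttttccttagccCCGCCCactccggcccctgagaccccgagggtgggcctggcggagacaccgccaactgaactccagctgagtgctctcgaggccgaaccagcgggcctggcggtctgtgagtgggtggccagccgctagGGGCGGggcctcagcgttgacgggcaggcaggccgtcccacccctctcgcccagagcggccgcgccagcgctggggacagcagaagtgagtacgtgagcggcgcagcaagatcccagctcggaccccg
EPHA1, chr7:143408807-143409106, minus strand: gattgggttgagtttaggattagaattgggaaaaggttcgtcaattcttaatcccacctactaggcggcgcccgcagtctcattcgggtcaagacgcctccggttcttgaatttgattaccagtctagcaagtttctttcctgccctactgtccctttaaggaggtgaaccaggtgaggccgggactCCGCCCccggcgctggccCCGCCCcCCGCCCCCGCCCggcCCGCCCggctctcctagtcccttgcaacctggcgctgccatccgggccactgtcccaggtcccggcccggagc
EPHB2, chr1:22710588-22710887, plus strand: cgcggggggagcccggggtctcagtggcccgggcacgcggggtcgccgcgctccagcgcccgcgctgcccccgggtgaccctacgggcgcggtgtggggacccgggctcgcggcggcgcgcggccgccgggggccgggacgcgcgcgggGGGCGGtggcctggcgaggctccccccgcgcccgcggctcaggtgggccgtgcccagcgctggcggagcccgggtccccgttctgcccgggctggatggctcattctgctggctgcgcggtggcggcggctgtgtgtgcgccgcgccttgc

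The EPHA7 window held TAATTN once, beginning 34 bases before the annotated start, and GGGCGG 4 times. EPHB3 held TAATTN once, beginning 228 bases before the start, and GGGCGG 3 times. EPHA1 and EPHB2 held no TAATTN and held GGGCGG 5 times and once. TAAT not followed by T was neither marked nor counted, and the EPHA1 and EPHA7 windows both hold it. Of 24882 such windows, 1 for each gene, 25.6% held TAATTN and 43.9% held GGGCGG on either strand. Among all 10 members, EPHA4, EPHA7, EPHB3 and EPHB4 held TAATTN, and each of the 10 held GGGCGG. Both kinds of match are letters in a window, not sites of binding. RefSeq lists 3 such windows for EPHA7, and read counts per gene do not tell which start the cells used.

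**Figure D1:**
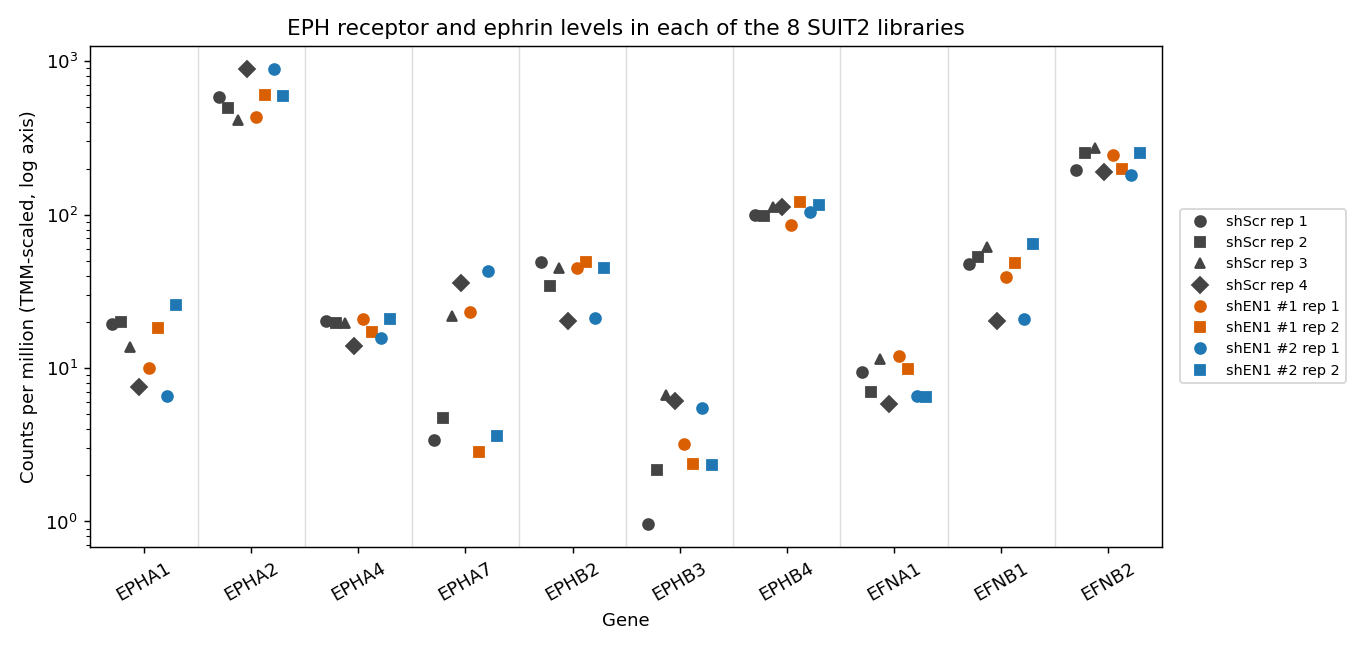
Level of each member in each library, in CPM on a log axis, with 1 point for each library (grey: shScr, orange: shEN1 #1, blue: shEN1 #2; the marker shape gives the replicate). EPHA7 spreads from 2.85 to 43.0 CPM with both labels at both ends, while EPHB4 stays between 85.5 and 121 CPM.

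Among the other class A receptors, EPHA2 was by far the most abundant. EPHA2 (gene 1969, chr1:16450832-16482564, minus strand) is a receptor with high levels in many carcinomas whose main ligand is ephrin-A1. It was at 589, 494, 415 and 885 CPM in the shScr libraries, 433 and 605 CPM in those of shEN1 #1, and 895 and 593 CPM in those of shEN1 #2. The 2 libraries that stood apart, shScr replicate 4 and shEN1 #2 replicate 1, were the highest, and the other 6 lay between 415 and 605 CPM.

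EPHA1 (gene 2041, chr7:143087382-143105949, minus strand), a receptor found mainly on epithelia, was at 19.3, 19.9, 13.6 and 7.55 CPM in the shScr libraries, 10.1 and 18.2 CPM in those of shEN1 #1, and 6.60 and 25.9 CPM in those of shEN1 #2. It was lowest in the same 2 libraries in which EPHA2 was highest, and its shEN1 libraries held both the lowest and the highest value. Its annotated exons overlap those of ZYX on the opposite strand, and without a stated strand setting the reads of both cannot be told apart.

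EPHA4 (gene 2043, chr2:222282747-222438922, minus strand), the receptor that takes ligands of both classes, was at 20.4, 19.7, 19.6 and 13.9 CPM in the shScr libraries, 20.97 and 17.2 CPM in those of shEN1 #1, and 15.7 and 20.9 CPM in those of shEN1 #2. It varied 1.51-fold in all, with its lowest values again in shScr replicate 4 and shEN1 #2 replicate 1.

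Of the class B receptors, EPHB3 varied most between libraries and EPHB4 least. EPHB2 and EPHB3 are known from the intestinal epithelium, where they position cells along the crypt. EPHB3 (gene 2049, chr3:184279573-184300196, plus strand) was at 0.964, 2.16, 6.65 and 6.06 CPM in the shScr libraries, 3.19 and 2.38 CPM in those of shEN1 #1, and 5.46 and 2.33 CPM in those of shEN1 #2. It was above 5 CPM in shScr replicates 3 and 4 and in shEN1 #2 replicate 1, and at or below 3.19 CPM in the other 5. Its counts were the lowest of any member, between 32 and 232, and the exact Poisson interval of its lowest library was 0.659 to 1.36 CPM.

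EPHB2 (gene 2048, chr1:23037332-23247993, plus strand) was at 48.8, 34.1, 45.0 and 20.2 CPM in the shScr libraries, 45.1 and 49.1 CPM in those of shEN1 #1, and 21.2 and 45.2 CPM in those of shEN1 #2. Its lowest libraries were shScr replicate 4 and shEN1 #2 replicate 1, at 20.2 and 21.2 CPM, and the other 6 lay between 34.1 and 49.1 CPM.

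EPHB4 (gene 2050, chr7:100400187-100425145, minus strand), the receptor of ephrin-B2 on venous endothelium, was at 99.9, 97.4, 112 and 112 CPM in the shScr libraries, 85.5 and 121 CPM in those of shEN1 #1, and 105 and 115 CPM in those of shEN1 #2. Its highest and its lowest library were both labelled shEN1 #1. Exons of EPHB4 overlap those of SLC12A9 on the opposite strand, so that the same limit on strand holds.

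The 3 ligands varied less than EPHA7. EFNA1 (gene 1942, chr1:155100352-155107375, plus strand), the ligand of EPHA2, was at 9.46, 6.98, 11.4 and 5.84 CPM in the shScr libraries, 12.04 and 9.88 CPM in those of shEN1 #1, and 6.55 and 6.48 CPM in those of shEN1 #2. Both shEN1 #1 libraries were above both shEN1 #2 libraries, and the shScr libraries spanned from 5.84 to 11.4 CPM, which covered all shEN1 libraries but the highest.

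EFNB1 (gene 1947, chrX:68048864-68062003, plus strand), a transmembrane ligand needed for the borders of the developing skull, was at 47.4, 52.8, 61.4 and 20.2 CPM in the shScr libraries, 39.0 and 48.2 CPM in those of shEN1 #1, and 20.7 and 64.1 CPM in those of shEN1 #2. It was lowest, at 20.2 and 20.7 CPM, in shScr replicate 4 and shEN1 #2 replicate 1, and was at least 39.0 CPM elsewhere.

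EFNB2 (gene 1948, chr13:107142093-107188010, minus strand), the arterial ligand of EPHB4, was the most abundant ephrin. It was at 195, 254, 273 and 190.4 CPM in the shScr libraries, 246 and 199 CPM in those of shEN1 #1, and 182 and 253 CPM in those of shEN1 #2. Its highest library was 1.501-fold above its lowest, and libraries of both labels lay at either end.

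To compare levels between genes, CPM were divided by the length of the MANE Select transcript in kilobases. On this scale EPHA2 had the highest mean level over the 8 libraries, 155.5 CPM per kb, followed among the members by EFNB2 at 44.9, EPHB4 at 24.3, EFNB1 at 13.4, EFNA1 at 5.53, EPHA1 at 4.58, EPHB2 at 3.498, EPHA4 at 2.91, EPHA7 at 2.62 and EPHB3 at 0.862. The ranges over the 8 libraries did not overlap between EPHA2, EFNB2, EPHB4 and EFNB1. From EFNB1 downward each gene's range overlapped that of the next. Within libraries, EFNB1 was still above EFNA1 in 8 of 8, EFNA1 above EPHA1 in 6, EPHA1 above EPHB2 in 7, EPHB2 above EPHA4 in 5, EPHA4 above EPHA7 in 4 and EPHA7 above EPHB3 in 6. EPHA7 reached 6.50 CPM per kb in shEN1 #2 replicate 1 and 0.431 in shEN1 #1 replicate 2.

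As a share of the summed per-length level of all 14 EPH receptors, EPHA2 took 82.5% in shScr replicate 4 and 82.6% in shEN1 #2 replicate 1, and between 54.2% and 66.1% in the other 6 libraries. EPHA7 took at most 2.37%, so even at its highest it was a minor part of the receptor RNA. Of the summed ephrin level, EFNB2 took between 53.8% and 62.8%.

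The comparison of labels called no member. With the 4 libraries labelled shEN1 against the 4 labelled shScr, edgeR's quasi-likelihood test gave 0 of 10 members a Benjamini-Hochberg adjusted p below 0.05, and 0 of 10 had an unadjusted p below 0.05. DESeq2 and limma-voom also called 0 of 10. Over all tested genes the background was 0% by adjusted p, or 0 of 14333 genes, and 0.307% by unadjusted p, or 44 genes. DESeq2 called 2 genes of the 14333 by adjusted p, limma-voom called 0, and neither of the 2 was an EPH or ephrin gene. The paper, which used DESeq2, reported far more genes than this, higher and lower, in SUIT2 after EN1 knockdown. It does not state the threshold for SUIT2, and its genes were not compared here.

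Among the members, 7 had a higher and 3 a lower estimate under the shEN1 label, beside 7006 and 7327 of all tested genes. The members' log2 fold changes lay between -0.24 and 0.14 with a median of 0.02, beside a median of -0.0028 over all tested genes. EPHB3 had the lowest p of the members (log2 fold change -0.24, SE 0.56, unadjusted p = 0.672 and adjusted p = 1.00 by edgeR).

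EPHA7 had the least certain estimate. The mean under the shScr label was 16.5 ± 15.5 CPM (SD, n = 4) and that under the shEN1 label 18.2 ± 19.1 CPM (SD, n = 4), a log2 fold change of 0.14 (SE 0.97, 95% confidence interval -2.04 to 2.32, adjusted p = 1.00 by edgeR). With this spread, changes anywhere within that interval could not be told from none. Without shScr replicate 4 and shEN1 #2 replicate 1 the log2 fold change was -0.02.

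The estimates were narrower for the members that varied least. EPHB4 was at 105.3 ± 7.79 CPM (SD, n = 4) in shScr and 107 ± 15.6 CPM (SD, n = 4) in shEN1, with an interval of -0.26 to 0.30 on the log2 scale. EPHA4 (-0.35 to 0.39) and EFNB2 (-0.41 to 0.30) were bounded almost as closely, and EPHA2 (-0.51 to 0.68), EFNA1 (-0.56 to 0.67) and EPHB2 (-0.59 to 0.83) less so. A p that misses the threshold does not show that the levels were equal.

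The ranges of the 2 labels overlapped for all 10 members. Over all tested genes, 60 had ranges that did not overlap, which is 0.419%.

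**Figure D2:**
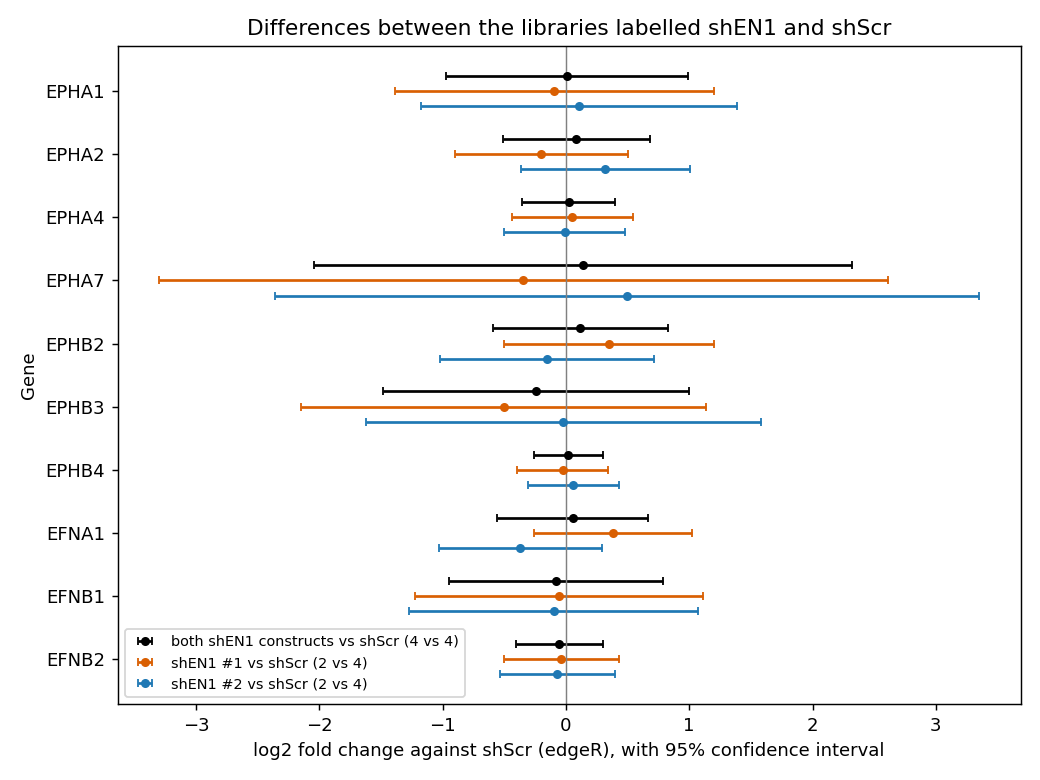
Log2 fold change of each member against shScr, with its 95% confidence interval from edgeR, for both constructs pooled (black), shEN1 #1 (orange) and shEN1 #2 (blue). Every interval includes 0, and those of EPHA7 are the widest.

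The constructs were also compared on their own in a fit with 3 groups, in which both share the 4 shScr libraries. No member had an adjusted p below 0.05 by edgeR for shEN1 #1 (0 of 10, background 0% of 14333), for shEN1 #2 (0 of 10, background 0%) or between the constructs (0 of 10, background 0%), and DESeq2 also called 0 of 10 in each. By unadjusted p the members counted 0 in each comparison, beside backgrounds of 0.656% (94 genes), 0.3% (43 genes) and 1.07% (153 genes).

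For EPHA7 the log2 fold change was -0.35 (SE 1.28) for shEN1 #1 and 0.50 (SE 1.23) for shEN1 #2, and the difference between the constructs was 0.84 (SE 1.46, adjusted p = 1.00 by edgeR). Within each construct EPHA7 differed more than between them: replicate 1 was at 23.2 and replicate 2 at 2.85 CPM for shEN1 #1, and at 43.0 and 3.59 CPM for shEN1 #2. EFNA1 came closest to a difference between the constructs, with a log2 fold change of -0.75 for shEN1 #2 against shEN1 #1 (SE 0.34, 95% confidence interval -1.503 to 0.0028, unadjusted p = 0.0507 and adjusted p = 1.00 by edgeR).

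Whether other members followed EPHA7 was described by the order of the libraries. The 8 libraries form 28 pairs, and for each gene the pairs were counted in which it differed in the same direction as EPHA7. The pairs share libraries and the count has no p. Over the 14332 other tested genes the median was 14 of 28. A count of at least 24 was reached by 3.19% of them (457 genes), and at least 24 pairs in the opposite direction by 4.08% (585 genes).

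No other member reached 24 pairs in the direction of EPHA7, 0 of 9 beside the background of 3.19%. EPHB3 came nearest with 20 of 28 pairs, 5 of 6 within the shScr libraries and 5 of 6 within the shEN1 libraries, and 18% of the other tested genes had at least as many. EPHA2 followed with 15 pairs, then EFNA1 with 12, EPHA4 and EFNB2 with 11 each, EPHB4 with 9 and EFNB1 with 8. EPHB2 was ordered against EPHA7 in 24 of 28 pairs, which makes 1 of 9 members beside the background of 4.08%, and EPHA1 in 23.

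A second measure kept the size of the differences. It is the root mean square difference over the 8 libraries between the log2 CPM of a gene and of EPHA7, each centred on its own mean. Shares of genes that lay closer to EPHA7 were taken over the 12501 other tested genes with a symbol and a mean of at least 1 CPM. EPHB3 lay at 0.952, and 0.888% of these genes lay closer to EPHA7. EPHA2 lay at 1.49, with 26.4% of these genes closer. The remaining 7 members lay between 1.60 and 2.19, with between 56.3% and 98.4% closer. EPHB3 was the member nearest to EPHA7 on both measures with all 8 libraries, but not by order without shScr replicate 4 and shEN1 #2 replicate 1: EFNB2 then shared the direction of EPHA7 in 73.3% of the remaining pairs, and EPHB3, EPHA4 and EFNA1 in 66.7% each. The range of EPHB3 was smaller, 6.90-fold between its lowest and highest library beside the 15.1-fold of EPHA7.

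Variation between libraries was common in the family. Of the 10 members, 7 differed at least 2-fold between the lowest and the highest library, EPHA7, EPHB3, EPHA1, EFNB1, EPHB2, EPHA2 and EFNA1, beside 35.8% of the tested genes (5135 genes). EPHA7 itself is 1 of these 7, and EPHA4, EFNB2 and EPHB4 stayed below 2-fold.

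**Figure D3:**
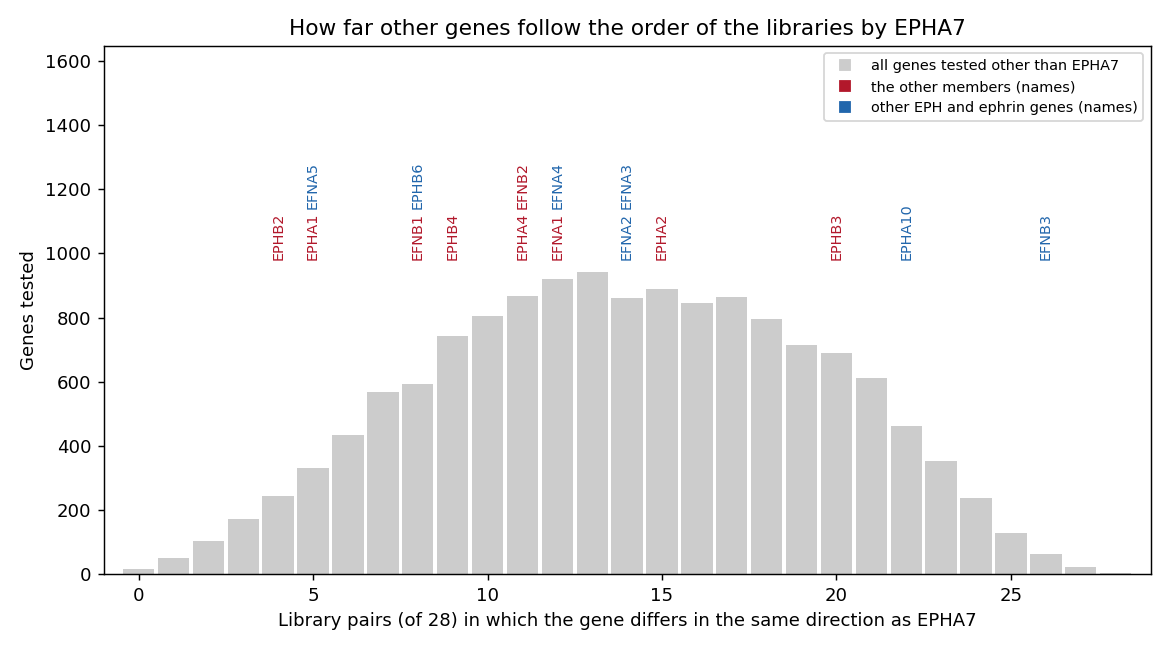
Number of tested genes (grey bars) by the count of library pairs, of 28, in which the gene differs in the same direction as EPHA7, with the other members named in red and other EPH and ephrin genes in blue above their count. EPHB3 at 20 is the member furthest to the right, EPHB2 at 4 the furthest to the left, and EFNB3 at 26 lies beyond all members.

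Of the other 12 EPH and ephrin genes, 7 passed the filter on low counts. EPHA5, EPHA6, EPHA8 and EPHB1 had no count in any library. If counts are independent, this allows a level of up to 3 counts, or 0.0921 CPM in the library where that limit is highest. EPHA3 had between 0 and 8 counts. None of the 7 tested genes was called, beside a background of 0% of all tested genes. The 7 had log2 fold changes between -0.23 and 0.11 for shEN1 against shScr. The ranges of both labels overlapped for each of the 7, while 0.419% of all tested genes had ranges that did not overlap.

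EFNB3, a transmembrane ligand, was ordered as EPHA7 in 26 of 28 pairs, and its root mean square difference from EPHA7 was 0.595. Of the genes with a symbol and a mean of at least 1 CPM, 0.104% lay closer. EFNB3 itself, with a mean of 0.939 CPM, was not among those genes. It was at 0.301, 0.404, 1.06 and 2.29 CPM in the shScr libraries, 0.672 and 0.176 CPM in those of shEN1 #1, and 2.23 and 0.369 CPM in those of shEN1 #2. Its counts were low, between 6 and 88, and the exact Poisson interval of its lowest library was 0.0648 to 0.384 CPM. EPHA10, a receptor without kinase activity, was ordered as EPHA7 in 22 pairs, a count that 8.88% of the other tested genes reached, and lay between 7.26 and 16.6 CPM.

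EPHB6, the other receptor of the family that lacks kinase activity, had the second highest mean level of the receptors per length, 31.1 CPM per kb, and was above EPHB4 in 6 of 8 libraries, not in shScr replicate 4 and shEN1 #2 replicate 1. It was at 152, 124, 178 and 22.7 CPM in the shScr libraries, 167 and 171 CPM in those of shEN1 #1, and 26.9 and 152 CPM in those of shEN1 #2. The 2 libraries that stood apart were at 22.7 and 26.9 CPM and the other 6 between 124 and 178 CPM. As a share of the summed receptor level, EPHB6 took 2.09% and 2.45% in those 2 libraries and between 16.1% and 22.95% in the others. Among the ephrin-A ligands, EFNA5 was steady, between 21.2 and 25.8 CPM, and EFNA2, EFNA3 and EFNA4 stayed at or below 10.7 CPM.

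Over the 17 tested family genes the closest pair of libraries did not share a label. The root mean square difference of centred log2 CPM was smallest, at 0.196, between shScr replicate 4 and shEN1 #2 replicate 1, where all 28 pairs lay between 0.196 and 1.56. The nearest library of shScr replicate 3 was shEN1 #1 replicate 1, at 0.553, and the reverse held too. The same 2 pairs were nearest neighbours over all tested genes, at 0.395 and 0.512. Another pair of mutual nearest neighbours, shScr replicate 2 and shEN1 #2 replicate 2, did not share a label either. They were 0.343 apart over the family and 0.488 over all tested genes. With shEN1 #1 and shEN1 #2 taken as 1 label, the remaining libraries had a nearest library of their own label over the family. There shScr replicate 1 was nearest to shScr replicate 2, at 0.456, and shEN1 #1 replicate 2 to shEN1 #2 replicate 2, at 0.414. Over all tested genes, shScr replicate 1 was instead nearest to shEN1 #1 replicate 2, at 0.510. The 2 libraries of shEN1 #2 were 1.46 apart over the family, among the widest distances.

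**Figure D4:**
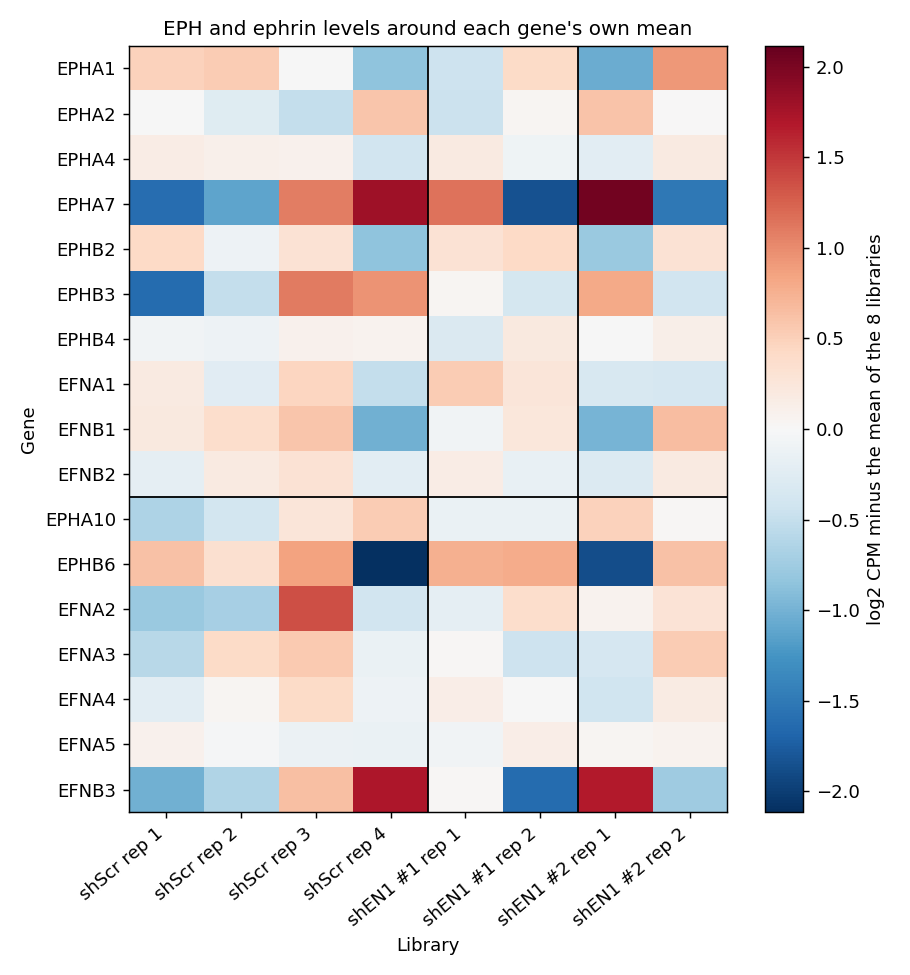
Level of the 17 tested EPH and ephrin genes in each library, as log2 CPM minus the gene's mean over the 8 libraries (red above, blue below), with members above the horizontal line and vertical lines between the labels. The columns of shScr replicate 4 and shEN1 #2 replicate 1 look alike, with EPHA7 and EFNB3 high and EPHB6 low, and differ from the other columns of their own labels.

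Genes known to act with EPH receptors and ephrins were counted from a list of 53: exchange factors and related regulators, GTPases and their effectors, kinases and adaptors, phosphatases, PDZ partners of the ephrins, and proteins of receptor turnover. Of these, 51 were tested. Under the shEN1 label 29 had a higher and 22 a lower estimate, beside 7006 and 7327 of all tested genes. By adjusted p, edgeR called 0, beside a background of 0%. By unadjusted p the count was also 0, beside 0.307% of all tested genes. DESeq2 and limma-voom called 0 by adjusted p. The log2 fold changes of the 51 lay between -0.57 and 0.19 with a median of 0.01. Kinases and adaptors counted 12 higher and 7 lower, and PDZ partners 2 higher and 4 lower.

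In the order of the libraries, 1 of the 51 signalling genes followed EPHA7 in at least 24 pairs and 4 went against it, beside backgrounds of 3.19% and 4.08%. The following genes are named after their values were seen. ITSN1, an exchange factor for CDC42 that binds EPHB2, followed EPHA7 in 25 pairs but lay only between 40.3 and 51.9 CPM. SH2D3A, NGEF, RAP1GAP and ANKS1A went against it in 27, 25, 26 and 24 pairs. NGEF (ephexin), an exchange factor that acts downstream of class A receptors, lay between 55.7 and 100.8 CPM. RAP1GAP, which switches off the GTPase RAP1, was at 13.0 CPM in shScr replicate 4 and 11.2 CPM in shEN1 #2 replicate 1 and between 32.3 and 50.4 CPM in the other 6 libraries.

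Outside the family, the 3 genes closest to EPHA7 by root mean square difference, of 12501 genes with a symbol and a mean of at least 1 CPM, were CALD1 (0.374), which encodes an actin-binding protein, ARMH4 (0.400) and SLC16A14 (0.418). CALD1 was at 1.205, 1.02, 4.85 and 7.47 CPM in the shScr libraries, 5.68 and 0.706 CPM in those of shEN1 #1, and 6.50 and 1.17 CPM in those of shEN1 #2. ARMH4 fell to 0.235 CPM in shEN1 #1 replicate 2 and SLC16A14 to 0.0602 CPM in shScr replicate 1. At such low levels the prior count of 2 weighs on their log2 CPM. The 3 genes closest to the mirror image of EPHA7 were TSPAN18 (0.527), a tetraspanin, LCK (0.533), a SRC-family kinase, and ALDH3A1 (0.624), an aldehyde dehydrogenase. ALDH3A1 was ordered against EPHA7 in 28 of 28 pairs, from 171.6 CPM in shEN1 #1 replicate 2, where EPHA7 was lowest, to 12.6 CPM in shEN1 #2 replicate 1, where it was highest.

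Epithelial markers also differed between the libraries. KRT7, a ductal keratin, was at 198 CPM in shScr replicate 4 and 192 CPM in shEN1 #2 replicate 1 and between 533 and 1079 CPM elsewhere. EPCAM, CDH1 and KRT19 were also lowest in these 2 libraries, but KRT8 and KRT18 were not. KRT8 was lowest in shEN1 #1 replicate 1, at 6092 CPM, and KRT18 in shScr replicate 3, at 3584 CPM. Of the 6 epithelial markers, 2 went against EPHA7 in at least 24 of 28 pairs, beside 4.08% of the other tested genes. The median of the 6 was 5.5 pairs in the direction of EPHA7, beside 14 over the other tested genes. The summed level of the 6 lay between 11691 and 15904 CPM in shScr and between 11436 and 18541 CPM in shEN1. Whether this had a part in the levels of EPHA7 and its family was not tested.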

How the data were processed

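RNA-seq of SUIT2 was analysed in 8 libraries, with groups taken from the labels. In a title such as shEn1_1.2 the number before the point was taken for the construct and the number after it for the replicate. The authors deposited unnormalized whole-number read counts per gene, made from paired-end reads with HISAT2 and featureCounts. The study's methods name hg19 for human reads, while the submitters' processing notes list mm9 for these libraries. The gene numbers in the files are those of human genes. The annotation and strand setting are not given in the sources used here, and neither is whether replicates were separate cultures, so p-values measure the spread between these libraries, which may be technical. The murine organoids were not analysed here.

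Of 25702 gene numbers, a RefSeq table (GRCh38.p14, used for names only) gave a symbol for 23696, and the other 2006 held at most 0.257% of a library's counts. Positions came from GENCODE lifted to GRCh37, lengths from its MANE Select transcripts and promoters from RefSeq, with 18 of the 22 family genes having a window at the outermost start.

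Counts were filtered with filterByExpr (minimum count 10), scaled by TMM and tested by quasi-likelihood (glmQLFit and glmQLFTest of edgeR 4.0.16, R 4.3.3), both constructs pooled against shScr and in a fit with 3 groups on the same 14333 genes. The threshold was an adjusted p of 0.05. CPM are counts divided by the scaled library size times 1e6, and centred log2 CPM used a prior count of 2. Alternatives were DESeq2 1.42.0, its size factors, no scaling, limma-voom (limma 3.58.1), no filter, the replicate number as a block, each library left out, and 2 or 4 libraries left out. Correlations between same-numbered libraries of their deviations from the group mean lay between -0.33 and 0.44. In a construct with 2 libraries these deviations mirror each other, so the correlations cannot decide whether replicate numbers pair libraries.

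The members, gene lists, left-out libraries and tests were chosen with earlier results of these data known. Named were the 10 members, EN1, the other family genes that passed the filter, listed signalling genes past the test, and the 3 genes most like and the 3 most unlike EPHA7, with exceptions given as such. Markers of cell types were named outside this rule.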

Additional observations from a re-analysis of the deposited data

Results flagged for a closer look

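Of 34 groups of 4 libraries examined among the 17 tested EPH and ephrin genes, 4 held a library whose gap to its neighbour, as a share of the group's range, passed Dixon's 95% critical value. Chance flags about 1 in 20 independent groups, but these groups share the same 8 libraries, and over all tested genes 6.76% of such groups met the criterion. In shScr, EPHA4 was at 13.9 CPM in replicate 4, beside 19.6 to 20.4 CPM in the others. In shEN1, EPHB2 was at 21.2 CPM in shEN1 #2 replicate 1, beside 45.1 to 49.1 CPM, and EPHB6 was at 26.9 CPM in the same library, beside 152 to 171 CPM. EFNA2 was at 2.32 CPM in shScr replicate 3, beside 0.482 to 0.640 CPM, with 81 counts there and between 16 and 24 in the others. Of the 4, 3 lay in shScr replicate 4 or shEN1 #2 replicate 1, which stood apart over all tested genes.

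In 2 of the 17 genes every library of one construct lay on one side of the shScr mean and every library of the other construct on the other side, as did 8.11% of all tested genes. The log2 difference of shEN1 #2 from shEN1 #1 was -0.75 for EFNA1 (SE 0.34, unadjusted p = 0.0507, adjusted p = 1.00 by edgeR) and 0.42 for EPHA10 (SE 0.38, unadjusted p = 0.304, adjusted p = 1.00 by edgeR). EPHA10 met the rule only narrowly, with shEN1 #2 replicate 2 at 11.58 CPM beside an shScr mean of 11.55 CPM.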

How the results depend on the processing

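The count of called members, family genes and signalling genes for the pooled labels was 0 under every alternative run, and members also counted 0 for each construct. Over all tested genes between 0 and 2 were called. Signs of fold changes near 0 did turn, and the cause was not tested. On the log2 scale, limma-voom gave -0.11 for EPHA1, -0.028 for EPHA7 and 0.053 for EPHB3. The replicate block, fitted without shScr replicates 3 and 4, whose numbers have no partner, gave -0.58 for EPHA1, -0.10 for EPHA4, -0.075 for EPHB2 and 1.02 for EPHB3, and moved EPHA7 to 1.00. Without shScr replicate 4 and shEN1 #2 replicate 1, EPHA4 was -0.019 and EPHA7 -0.024. Without these and also shScr replicate 3 and shEN1 #1 replicate 1, EPHA4 was -0.078, EPHA7 -0.34, EPHB3 0.59, EFNA1 -0.0065, EFNB1 0.16 and EFNB2 0.0068, and EPHB4, at 0.26, had an unadjusted p of 0.0243 (adjusted p = 0.413 by edgeR), where 1512 of 14273 genes passed the unadjusted threshold.

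With each library left out in turn, every member's log2 fold change took both signs: EPHA1 -0.38 to 0.25, EPHA2 -0.14 to 0.34, EPHA4 -0.091 to 0.095, EPHA7 -0.73 (without shEN1 #2 replicate 1) to 0.86 (without shScr replicate 4), EPHB2 -0.086 to 0.33, EPHB3 -0.58 to 0.13, EPHB4 -0.052 to 0.11, EFNA1 -0.14 to 0.23, EFNB1 -0.34 to 0.15 and EFNB2 -0.13 to 0.046. The share of library pairs ordered as by EPHA7 was 9.52% to 23.8% for EPHA1 and 9.52% to 19.05% for EPHB2. Without shScr replicate 4 and shEN1 #2 replicate 1 it was 33.3% for EPHA1, 13.3% for EPHA2, 66.7% for EPHA4 and EFNA1, 20% for EPHB4, 46.7% for EFNB1 and 73.3% for EFNB2, and EPHB3 stood at 66.7%, no longer the highest of the members.

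Depth did not limit the abundant members, but EPHB3 and EFNB3 rested on as few as 32 and 6 counts. For EPHA7 the spread between 4 libraries a label set the limit, with a 95% confidence interval of -2.04 to 2.32 on the log2 scale.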
